A study of Mus musculus with 9 samples.

Results

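The 10 genes described here encode secreted growth factors and cytokines of 4 kinds, and they were chosen by symbol from the 54532 genes of the table. Csf1, Csf2 and Csf3 encode the macrophage, granulocyte-macrophage and granulocyte colony-stimulating factors. Il6 and Lif encode ligands of the IL-6 family. Il12a, Il12b, Il23a and Il27 encode subunits of the IL-12 family, and Il10 encodes IL-10. All 10 were found once each. No measured value entered the rule that picked them, but the choice was made with earlier results of these data known.

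RNA-seq was carried out on RAW264.7, a mouse macrophage line labelled as wild type and derived from ascites. Each of 3 groups had 3 libraries. Control cells were untreated, LPS cells received 1 μg/ml LPS for 6 h, and LPS + G-CDs cells received the same dose of LPS and 400 μg/ml G-CDs for 6 h. LPS, or endotoxin, is a glycolipid of the Gram-negative bacterial surface, and G-CDs are carbon dots made from the plant Glycyrrhiza. The labels of the LPS + G-CDs libraries name G-CDs in the title but list LPS alone as the treatment, and the dose and time come from the methods of the study. There was no group with G-CDs and no LPS, so a change with G-CDs can only be read in the presence of LPS. All groups were the same line, and the labels do not say whether the replicates were separate cultures. The study refers to independent experiments beside its plots of results, without tying these to the sequenced libraries, so p-values measure only the spread between these libraries, which may be technical.

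Macrophages sense LPS through Toll-like receptor 4, which leads to nuclear entry of NF-κB and to transcription of inflammatory cytokine genes. Colony-stimulating factors support the growth and activation of myeloid cells, IL-6 and LIF signal through a shared receptor chain to STAT3, and IL-10 restrains macrophage activation. Members of the IL-12 family are made of paired subunits, so that the Il12b subunit joins either the Il12a or the Il23a subunit, and the Il27 subunit joins Ebi3.

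The unit of expression was FPKM, the reads on a gene scaled to its length and to the library size. Each library held between 14752400 and 17312255 reads on genes, recovered as whole numbers from FPKM and gene length. The library size behind FPKM was 1.108 to 1.14 times these reads in control libraries, 0.929 to 0.936 times in LPS libraries and 0.88 to 0.98 times in LPS + G-CDs libraries, so the values already carry a scaling between groups. Of 9 macrophage markers, 8 had a mean of at least 1 FPKM in every group, and Mertk was at 0 in all libraries. Summed markers of neutrophils, dendritic cells, B cells, fibroblasts and epithelial cells stayed below 1 FPKM in every library, and all 5 fibroblast and all 4 epithelial markers had 0 reads in the LPS group. The summed T cell markers lay between 0.871 and 1.4 FPKM in control, between 3.264 and 3.781 in LPS and between 4.477 and 6.895 in LPS + G-CDs libraries. Most of this was the kinase gene Lck, while the T cell receptor genes Cd3d, Cd3e and Cd3g had 5, 1 and 0 reads over all 9 libraries. The summed dendritic cell markers lay between 0.1261 and 0.3551 FPKM in control, between 0.7893 and 0.7986 in LPS and between 0.4176 and 0.7771 in LPS + G-CDs libraries, and in the LPS group this was mostly Xcr1, with 125 reads against 12 in control. The part of Lck and Xcr1 in the results below was not tested. In bulk RNA, fewer cells of a type and less RNA per cell cannot be told apart.

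Sequence is shown first for the promoters, because Il6, Csf1 and Lif hold matches to motifs of the factors that LPS activates. RefSeq promoters on GRCm38.p6, which run from 250 bases before to 50 bases after the start, were matched for 6 of the 10 genes, with 7 windows because Il12a has 2 starts. The genes without an entry were Csf3, Il23a, Il27 and Il10. The 250 bases before the start are printed 5′ to 3′ on the gene's strand, and capitals mark matches on either strand to the NF-κB consensus, to the C/EBP motif TTGCNNAA or to the AP-1 motif TGANTCA.
Il6, chr5:30012864-30013113, plus strand: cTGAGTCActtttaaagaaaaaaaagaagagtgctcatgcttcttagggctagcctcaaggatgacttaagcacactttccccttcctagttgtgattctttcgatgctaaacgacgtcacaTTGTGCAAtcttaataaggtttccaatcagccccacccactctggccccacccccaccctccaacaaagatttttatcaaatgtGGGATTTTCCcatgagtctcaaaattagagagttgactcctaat
Csf1, chr3:107760470-107760719, minus strand: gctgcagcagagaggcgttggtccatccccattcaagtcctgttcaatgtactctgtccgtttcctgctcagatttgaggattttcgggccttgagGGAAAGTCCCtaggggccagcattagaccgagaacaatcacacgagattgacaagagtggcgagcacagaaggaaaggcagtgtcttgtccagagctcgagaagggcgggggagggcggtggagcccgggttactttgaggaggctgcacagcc
Lif, chr11:4257318-4257567, plus strand: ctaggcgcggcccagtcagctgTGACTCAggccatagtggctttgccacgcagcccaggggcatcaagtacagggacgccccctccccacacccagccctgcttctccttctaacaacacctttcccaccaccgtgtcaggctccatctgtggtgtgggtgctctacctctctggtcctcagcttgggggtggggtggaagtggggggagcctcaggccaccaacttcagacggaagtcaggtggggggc

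The Il6 window held an NF-κB match beginning at -44, a C/EBP match at -128 and an AP-1 match at -249. It was the only one of the 7 windows with matches to these 3 motifs together. Csf1 held an NF-κB match at -154, and Lif held an AP-1 match at -228. Csf2 held a C/EBP match at -145, in a window whose RefSeq start lay 232 bases from the start in the table. Il12b held the Ets-type purine box GAGGAA at -219 and at -143. Neither Il12a window held a match. Among 32851 promoters of this length, 4.51% held the NF-κB consensus, 10.8% the C/EBP motif, 7.81% the AP-1 motif and 28.3% the purine box. The cyclic AMP response element TGACGTCA (1.79% of promoters), the STAT motif TTCNNNGAA (8.3%) and the ISRE motif (3.44%) were in none of the member windows. These are letter matches and no measure of binding.

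**Figure D1:**
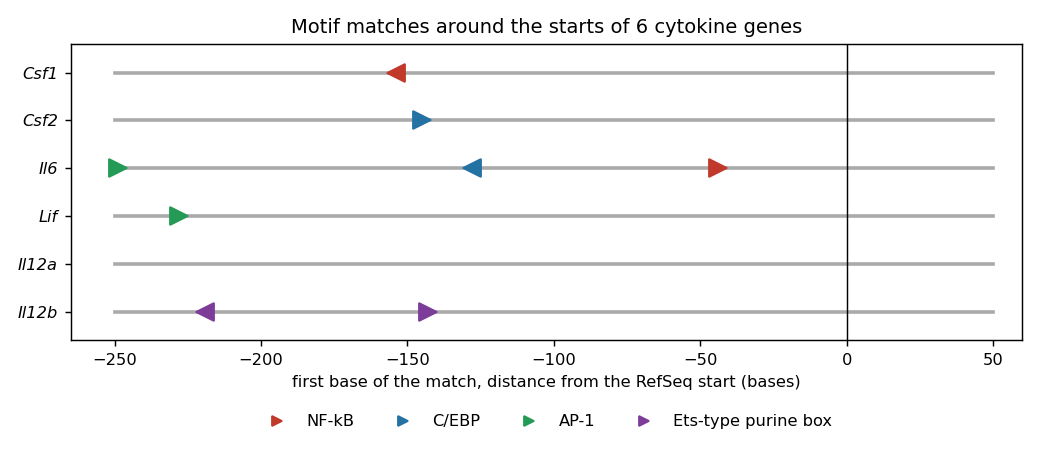
Position of motif matches from 250 bases before to 50 bases after the RefSeq start of 6 cytokine genes, with right-pointing marks on the gene's strand and left-pointing marks on the other strand. Il6 carries 3 of the motifs, and the line for Il12a stands for both of its windows, which hold none.

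A second kind of sequence is shown because the mRNAs of many cytokines are short-lived through AU-rich elements in the 3′ UTR, which hold the pentamer ATTTA and are read by decay proteins such as the product of Zfp36. On the transcripts with the longest coding sequence in the GENCODE annotation of GRCm38, every one of the 10 genes held between 4 and 9 pentamers. The stretches of 30 bases with the most pentamers are given for the 4 genes with the highest density and for Csf3, with pentamers in capitals.
Csf2, bases 230 to 259 of a 3′ UTR of 317: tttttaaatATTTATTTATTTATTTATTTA
Il27, bases 176 to 205 of 285: ccagatATTTAtttcttggatATTTATTTA
Il6, bases 129 to 158 of 427: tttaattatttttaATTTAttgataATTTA
Il12a, bases 384 to 413 of 497: gcctATTTAtATTTATTTAttttctATTTA
Csf3, bases 24 to 53 of 669: gatagtttATTTAtctctATTTAatATTTA

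Csf2 had 28.39 pentamers per 1000 bases of 3′ UTR, Il27 had 17.54, Il6 had 14.05 and Il12a had 12.07. Csf1 and Lif, which have the longest 3′ UTRs of the 10, had 1.89 and 2.2 per 1000 bases, against 1.93 over the 3′ UTRs of 20801 coding genes. The nonamer TTATTTATT, a stricter AU-rich motif, was in 5 of the 10 genes (Csf2, Lif, Il12a, Il23a and Il27) and in 6.9% of coding genes. Some of the pentamers of Csf2, Il27 and Il12a overlap each other.

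Levels between the genes were compared in FPKM, which is per deposited gene length. That length was 2428 bases for Il6 and 2247 for Il23a, while their transcripts with the longest coding sequence have 1141 and 1360. For Csf2 and Csf3 the lengths were equal, at 800 and 1413 bases. The effect of the length used on the order was not tested. In LPS libraries Csf3 had the highest mean of the 10 genes, at 1374 FPKM, rank 20 among the 11585 genes tested. It was followed by Il27 at 280.5 (rank 152), Csf2 at 145.1 (rank 328), Lif at 137.4 (rank 350) and Il6 at 18.5 (rank 3081). Il23a at 2.652, Csf1 at 1.928 and Il10 at 0.5775 were far lower, and Il12b and Il12a were at or near 0. The ranges of Csf2 and Lif overlapped, as did those of Il23a and Csf1 and those of Il12b and Il12a, while each other pair of neighbors was separate. In control libraries the highest of the 10 was Il27 with a mean of 0.6183 FPKM. In LPS + G-CDs libraries the order was the same except that Lif stood before Csf2, with overlapping ranges, and Il12a before Il12b, at 1 read each.

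**Figure D2:**
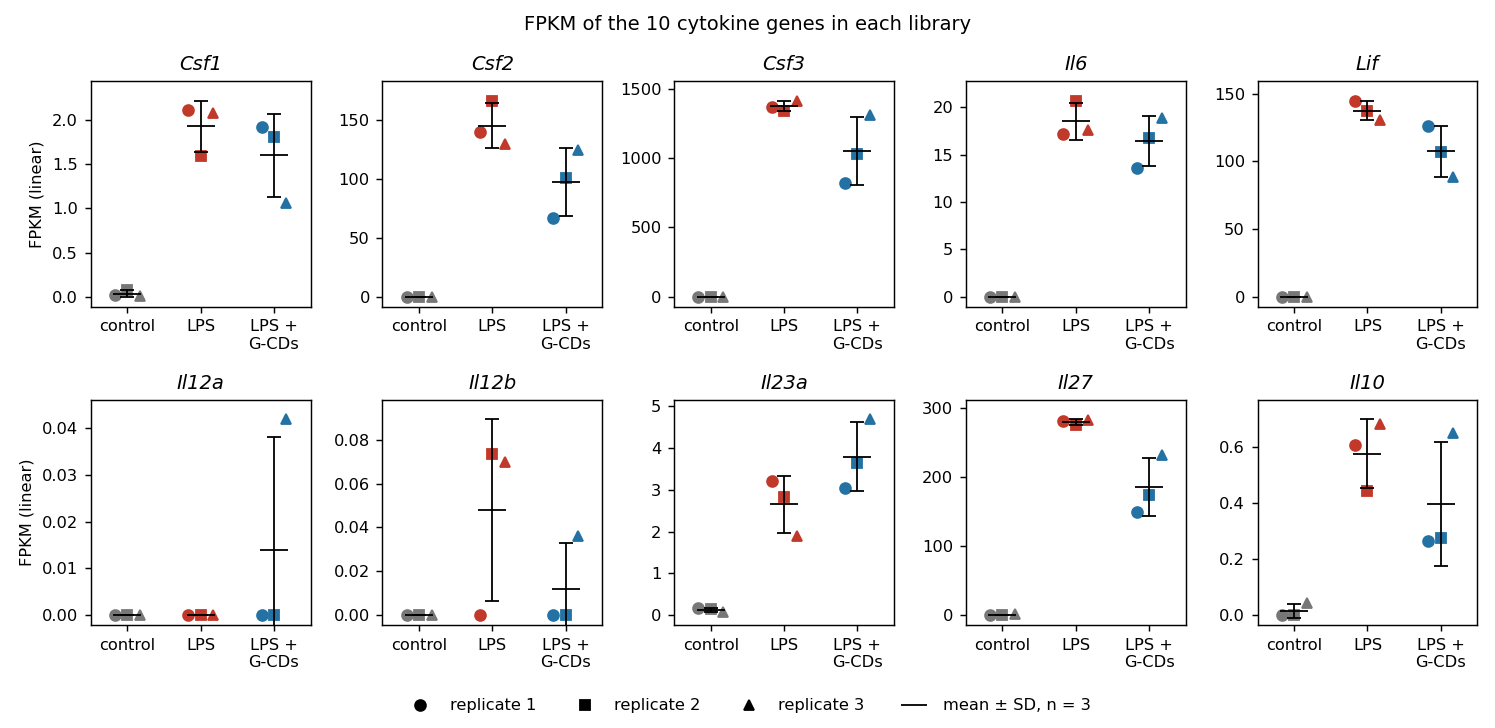
FPKM on a linear axis of each cytokine gene in the 9 libraries, with points for replicates 1 to 3 and a bar for the mean ± SD of each group (n = 3). The 8 genes other than Il12a and Il12b lie higher in every LPS-treated library than in every control library, while Il12a and Il12b rest on 0 to 2 reads.

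The comparison of LPS with control asked which of these genes responded to LPS at 6 h. Genes with at least 1 FPKM in at least 3 of the 9 libraries were tested with limma on log2(FPKM + 1), and a gene was called at an adjusted p under 0.05. Csf1, Csf2, Csf3, Il6, Lif, Il23a and Il27 passed this filter, for which their LPS-treated libraries alone were enough, so a difference from control was built into their selection and their count carries no support. Each of these 7 was called higher, where 15.8% of all genes tested were called higher and 15.6% lower. For genes near 0 the added pseudocount of 1 shrinks these fold changes, so ratios of mean FPKM are given as well, and a group at 0 was set to a floor of 3 reads per library.

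Csf3, on chr11:98701263-98703629, encodes the factor that drives neutrophil production. It stood at 0, 0.0416 and 0.278 FPKM in the control libraries, at 1368, 1340 and 1414 in the LPS libraries and at 820, 1026 and 1310 in the LPS + G-CDs libraries. The LPS libraries lay close together, and the groups did not overlap. Csf3 rose by 10.29 ± 0.18 (SE) on the log2 scale with LPS (limma adjusted p = 4e-09), and the ratio of mean FPKM was 12890, over 8 control reads in all. Of these reads 7 were in control replicate 3, and without it the ratio of reads was 69510, with a 95% counting interval of 12480 to 2746000. Without control replicate 1 the ratio of mean FPKM was 8595.

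Csf2, on chr11:54247271-54249667, encodes GM-CSF, which acts on macrophages, granulocytes and dendritic cells. It had 0 reads in each control library, 139.4, 166.4 and 129.5 FPKM with LPS and 66.7, 100.7 and 124.8 FPKM with LPS + G-CDs. Every LPS library was thus above every LPS + G-CDs library, by a small margin at the nearest pair. Csf2 rose by 7.18 ± 0.21 on the log2 scale (limma adjusted p = 4.2e-08), which is at least 690.1-fold against the floor of 0.2103 FPKM. Its locus overlaps the gene Gm12223 on the other strand, which reached 1.173 FPKM with LPS, and since the counting strand is not given in the sources used here, reads of the overlap cannot be assigned.

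Csf1, on chr3:107741048-107760469, encodes the growth factor on which macrophage survival depends. It had 2, 7 and 1 reads in control, and stood at 2.11, 1.59 and 2.08 FPKM with LPS and at 1.93, 1.81 and 1.06 FPKM with LPS + G-CDs. The latter groups overlapped, and replicate 3 with G-CDs was the lowest treated library. Csf1 rose by 1.49 ± 0.17 on the log2 scale with LPS (limma adjusted p = 0.00018), a ratio of mean FPKM of 53.23. Without control replicate 2, which held most of the control reads, the ratio of reads was 124.3 with a 95% counting interval of 42.25 to 605.1.

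Il6, on chr5:30013114-30019981, encodes the fever and acute-phase cytokine IL-6. It had 0 reads in all control libraries, 17.1, 20.7 and 17.7 FPKM with LPS and 13.6, 16.8 and 18.9 FPKM with LPS + G-CDs. The treated groups overlapped. Il6 rose by 4.28 ± 0.14 on the log2 scale with LPS (limma adjusted p = 6.9e-08), at least 267.0-fold against the floor.

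Lif, on chr11:4257557-4272514, encodes leukemia inhibitory factor. It had 1, 0 and 1 reads in control, and stood at 144.8, 136.9 and 130.6 FPKM with LPS and at 126.4, 107.2 and 88.4 FPKM with LPS + G-CDs. The lowest LPS library was above the highest with G-CDs. Lif rose by 7.10 ± 0.14 on the log2 scale (limma adjusted p = 4.7e-09), and the ratio of reads was 16010 with a 95% counting interval of 4430 to 132200, which covers counting error only.

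Within the IL-12 family the subunits differed. Il27, on chr7:126589010-126594941, stood at 0.522, 0.288 and 1.05 FPKM in control, at 281.9, 276.0 and 283.6 with LPS and at 150.4, 173.8 and 232.2 with LPS + G-CDs, and no groups overlapped. It rose by 7.47 ± 0.20 on the log2 scale with LPS (limma adjusted p = 2.7e-08), a ratio of mean FPKM of 453.6, or 692.7 without control replicate 3. Il27 overlaps 103 bases of Apobr on the other strand, which stood at 43.26 to 49.09 FPKM with LPS and 45.43 to 55.79 with LPS + G-CDs, and reads of this overlap could not be assigned.

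Il23a, on chr10:128296139-128298752, encodes the subunit particular to IL-23. It stood at 0.166, 0.157 and 0.075 FPKM in control, at 3.22, 2.84 and 1.90 with LPS and at 3.05, 3.64 and 4.69 with LPS + G-CDs. The treated groups overlapped, and the highest value was in the G-CDs group. Il23a rose by 1.67 ± 0.18 on the log2 scale with LPS (limma adjusted p = 0.00015), a ratio of mean FPKM of 19.99.

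The partner subunits of IL-12 and IL-23 were hardly detected. Il12b, on chr11:44400063-44414033, had 0, 2 and 2 reads in the LPS libraries, 0, 0 and 1 with G-CDs and 0 in control. Il12a, on chr3:68690644-68698547, had a single read, in LPS + G-CDs replicate 3. A count of 0 allows up to 3 reads per library, which for Il12a is 0.1256 FPKM in an LPS library and for Il12b in control is 0.08551 FPKM, so lower expression was not detectable at this depth. Ebi3, the partner of the Il27 subunit, stood at 9.323 ± 4.917 FPKM in control and at 48.02 ± 3.734 with LPS (SD, n = 3) and was called higher, by 2.39 ± 0.37 on the log2 scale (limma adjusted p = 0.0013).

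Il10, on chr1:131019845-131024974, had 0, 0 and 1 reads in control, 11, 8 and 13 with LPS and 5, 6 and 12 with LPS + G-CDs. The mean was 0.5775 ± 0.1229 FPKM with LPS and 0.3973 ± 0.2208 with LPS + G-CDs (SD, n = 3), and it did not reach the filter. The LPS libraries did not overlap the control libraries, and the ratio of reads was 40.67 with a 95% counting interval of 6.794 to 1656. The single control read was in replicate 3, and without that library the ratio was at least 4.501 against the floor, while without control replicate 1 it was 26.44. The two-sided exact permutation p was 0.1 for LPS against control, the smallest that 3 against 3 libraries can give, and 0.3 for LPS + G-CDs against LPS. In a fit without the filter Il10 was called higher with LPS, by 0.63 ± 0.11 on the log2 scale (limma adjusted p = 0.0076), and Il12b was not (0.07 ± 0.03, limma adjusted p = 0.22).

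Each of the 7 tested genes was also called higher in LPS + G-CDs cells than in control cells, against 12.8% of all genes tested. As said above, LPS-treated libraries alone were enough for the filter, so this count carries no support either. The comparison of LPS + G-CDs with control shares its control libraries with the one above. The difference was 9.88 for Csf3, 6.85 for Il27, 6.73 for Lif, 6.57 for Csf2, 4.11 for Il6, 2.07 for Il23a and 1.31 for Csf1 on the log2(FPKM + 1) scale. As ratios, LPS + G-CDs stood over control at 9868 for Csf3, 299.9 for Il27, 44.19 for Csf1 and 28.6 for Il23a in mean FPKM, at least 463.2 for Csf2 and 237.3 for Il6 against the floor, and 12530 for Lif in reads, with a 95% counting interval of 3469 to 103500. Without control replicate 3 the ratio was 458.0 for Il27 and, in reads, 53000 for Csf3 (interval 9512 to 2093000), and without control replicate 2 it was 104.0 for Csf1 in reads (interval 35.32 to 506.5).

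The comparison of LPS + G-CDs with LPS asked whether G-CDs altered the response. None of the 7 tested genes was called by limma at an adjusted p under 0.05, and 3 of them had an unadjusted p under 0.05, where 15.2% of all genes tested did. Among all genes tested, 0.25% were called higher and 0.242% lower. At the threshold of the study, an unadjusted p under 0.01 and over 1.5-fold, none of the 7 was called either, against 1.24% of all genes called lower. The groups did not overlap for 4 of the 7, Csf2, Csf3, Il27 and Lif, each lower with G-CDs. Among all genes tested, 15.0% were lower and 12.9% were higher without overlap. The median of the 7 was -0.367 on the log2 scale, beside 0.017 for all genes tested.

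Il27 had the largest difference of the 7, at -0.62 ± 0.20 (SE) on the log2 scale, with a 95% confidence interval of -1.08 to -0.16 (limma adjusted p = 0.27). Its mean with G-CDs was 66.11% of that with LPS alone. Csf2 was close to it at -0.61 ± 0.21, with an interval of -1.09 to -0.13 (limma adjusted p = 0.29) and 67.13% of the LPS mean. When single libraries were left out, the difference of Il27 lay between -0.79 and -0.48, and that of Csf2 was -0.36 without LPS + G-CDs replicate 1 and -0.81 without LPS + G-CDs replicate 3.

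Lif differed by -0.37 ± 0.14, with an interval of -0.68 to -0.05 (limma adjusted p = 0.30), and its mean was 78.11% of the LPS mean. Csf3 differed by -0.41 ± 0.18, with an interval of -0.83 to 0.01 (limma adjusted p = 0.33), at 76.54%. The unadjusted interval of Csf3 included 0, those of Il27, Csf2 and Lif did not, and none of the 4 held after adjustment over all genes tested. Without LPS + G-CDs replicate 3 the difference of Lif was -0.24, and without LPS + G-CDs replicate 1 it was -0.49. Csf3 went the other way, at -0.24 without LPS + G-CDs replicate 1 and -0.58 without LPS + G-CDs replicate 3.

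Il6 differed by -0.17 ± 0.14, with an interval of -0.48 to 0.14 (limma adjusted p = 0.47), and stood at 88.88% of the LPS mean. Csf1 differed by -0.18 ± 0.17, with an interval of -0.56 to 0.19 (limma adjusted p = 0.51). Il23a was the only tested gene of the 10 with a positive difference, 0.40 ± 0.18 with an interval of -0.01 to 0.80 (limma adjusted p = 0.33), and its mean was 143.1% of the LPS mean. Single libraries moved these small differences. That of Il6 was -0.05 when LPS + G-CDs replicate 1 was left out, -0.27 when LPS + G-CDs replicate 3 was, and -0.09 when LPS replicate 2 was. That of Csf1 was -0.02 when LPS + G-CDs replicate 3 was left out, -0.28 when LPS + G-CDs replicate 1 was, and -0.27 when LPS replicate 2 was. For Il23a it was 0.24 when LPS replicate 3 was left out. The direction of each of these 7 differences was the same in every alternative run.

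**Figure D3:**
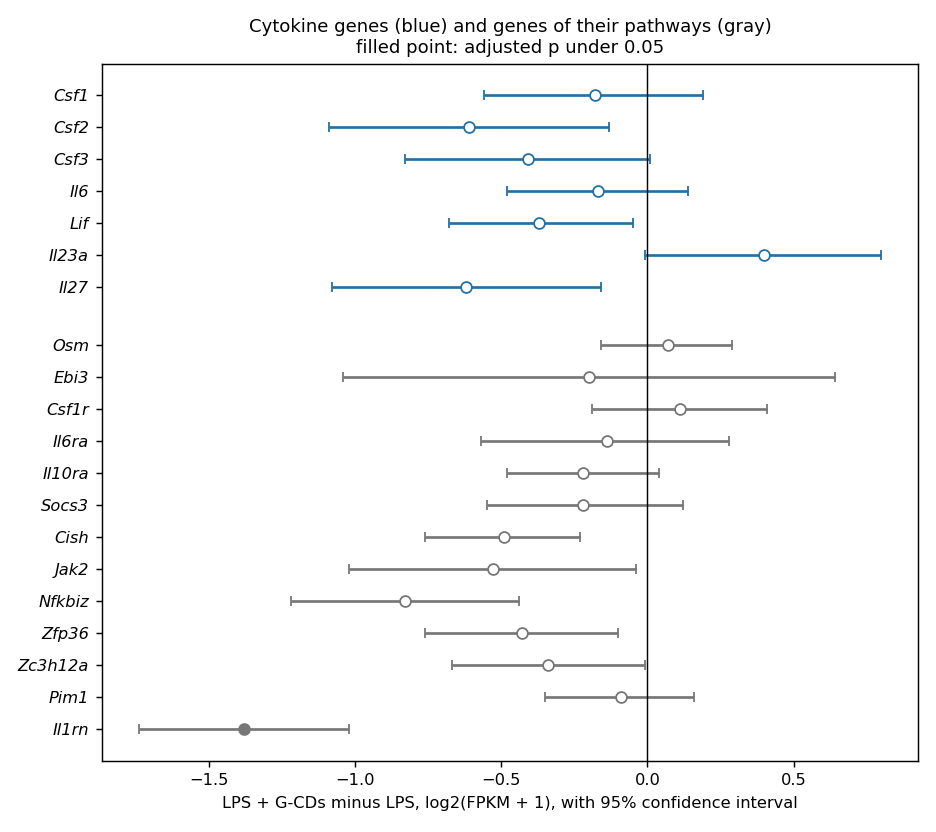
Difference between LPS + G-CDs and LPS on the log2(FPKM + 1) scale with its 95% confidence interval from limma, for the 7 tested cytokine genes (blue) and 13 genes of their pathways named in the text (gray), over 3 libraries a group. Filled points have an adjusted p under 0.05, and Il1rn at -1.38 is the only one.

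The SD in FPKM of each of the 7 tested genes was larger over the LPS + G-CDs libraries than over the LPS libraries, and the order of the replicates differed between short and long genes. Csf3, with a length of 1413 bases, had an SD of 37.54 FPKM with LPS and 246.2 FPKM with G-CDs, and Il27 had 3.999 and 42.12 FPKM. As percent of the LPS mean, Csf2 stood at 45.94, 69.39 and 86.04 in G-CDs replicates 1 to 3, Il27 at 53.62, 61.95 and 82.78, and Csf3 at 59.66, 74.63 and 95.34. In Lif, with 4350 bases, the values were 91.99, 78.00 and 64.35, and in Csf1, with 5281 bases, they were 99.84, 93.99 and 55.22. Replicate 3 was thus the highest of the group for the 5 shorter tested genes and the lowest for the 2 longest.

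**Figure D4:**
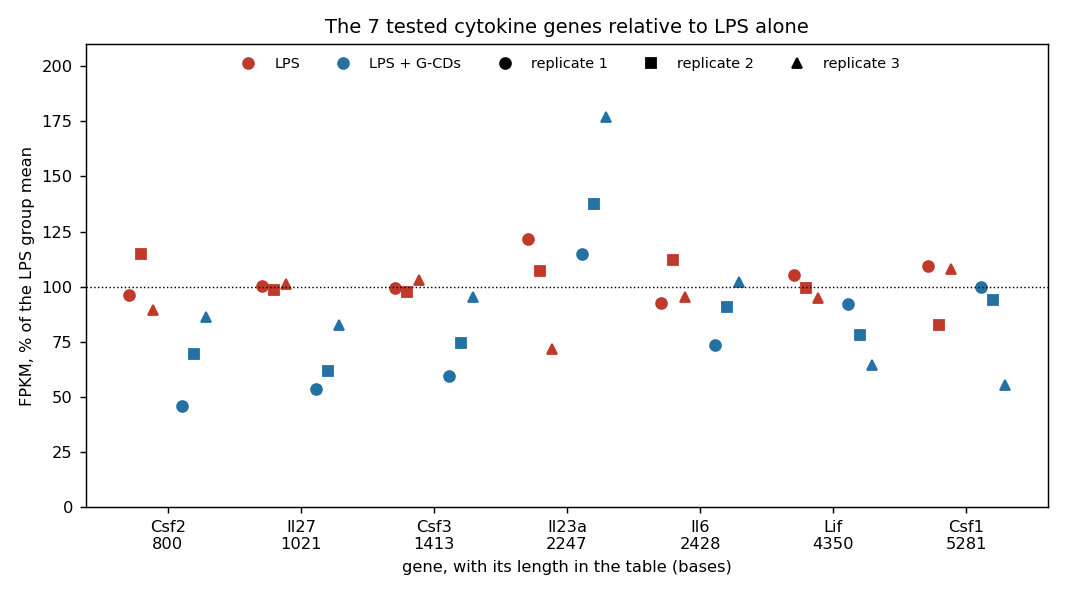
FPKM of the 7 tested cytokine genes in each LPS (red) and LPS + G-CDs (blue) library as percent of the LPS mean, with genes ordered by length and marker shapes for replicates 1 to 3. Replicate 1 with G-CDs is the lowest of its group for the 5 genes of 800 to 2428 bases and the highest of its group for Lif and Csf1.

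For the 5 shorter genes, the median of other genes of similar length was likewise lowest in replicate 1 and highest in replicate 3. Among the 752 genes tested with a length within 20% of that of Csf3, the median deviation from the group mean was -0.329 in replicate 1, -0.029 in replicate 2 and 0.348 in replicate 3 with G-CDs on the log2 scale, where Csf3 itself deviated by -0.33, -0.01 and 0.34. In the LPS group the same median stayed between -0.034 and 0.026. Control libraries also differed by length. Genes grouped around a median length of 1354.5 bases had median deviations of -0.0429, -0.1306 and 0.2014 in control replicates 1 to 3. Lif and Csf1, the longest of the 7, lay further from 0 in replicates 1 and 3 than the median of the genes near their length. The spread of single genes of that length was not measured. Lif deviated by 0.25, 0.01 and -0.26, while the 2372 genes near its length had medians of -0.01, 0.008 and -0.002. Csf1 deviated by 0.19, 0.13 and -0.32, beside 0.056, 0.005 and -0.06 for 2403 genes, which is the same order over the replicates at a smaller size. For the 453 genes near the length of Csf2, the median difference from the LPS mean was -0.043, 0.254 and 0.626 in replicates 1 to 3, while that of Csf2 was -1.10, -0.51 and -0.21. Csf2 was below the median of these genes in each of the 3 libraries, and its rank among them was not measured.

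Il27 lay at -0.89, -0.69 and -0.27 against the LPS mean, beside medians of -0.028, 0.309 and 0.717 for 503 genes near its length. Il23a lay at 0.17, 0.36 and 0.66, beside -0.015, 0.215 and 0.46 for 1410 genes. Genes near the length of Lif had medians between -0.021 and 0.026, and Lif lay at -0.12, -0.35 and -0.63. After the length trend of each library was removed, an alternative added after the data were seen, 3 of the 7 genes were called lower, against 0.457% of all genes tested. They were Il27 at -0.89 ± 0.11 (limma adjusted p = 0.0067), Csf3 at -0.69 ± 0.09 (limma adjusted p = 0.0094) and Csf2 at -0.86 ± 0.14 (limma adjusted p = 0.037). Lif at -0.38 ± 0.13 and Il6 at -0.36 ± 0.11 were not called (limma adjusted p = 0.24 and 0.19), and Il23a stood at 0.18 ± 0.17 (limma adjusted p = 0.56).

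**Figure D5:**
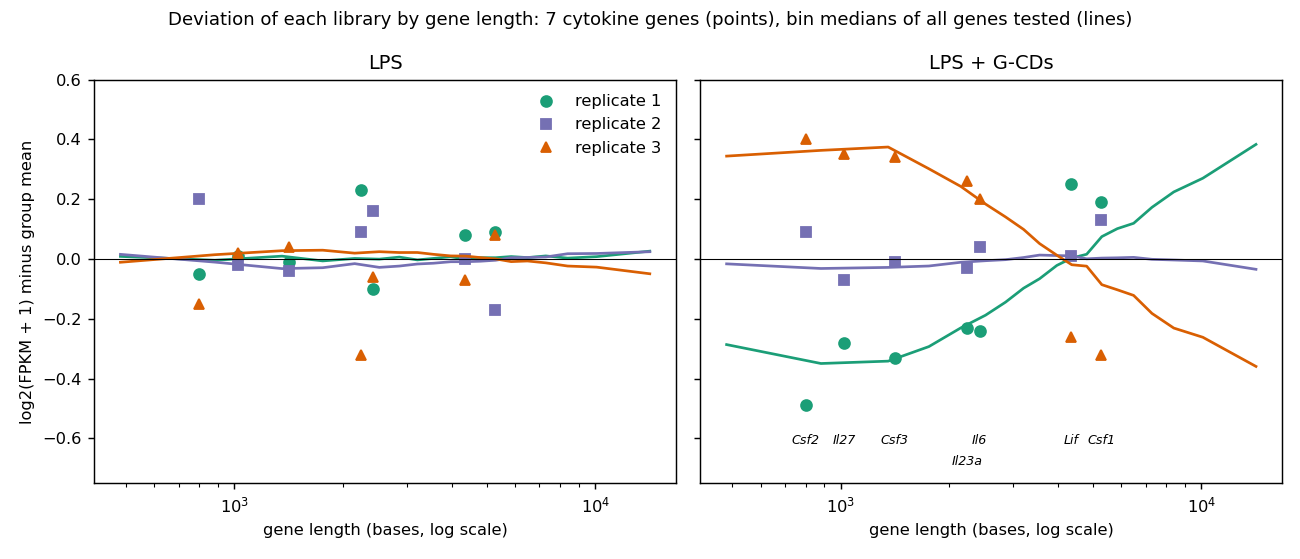
Deviation of each LPS and LPS + G-CDs library from its group mean, log2(FPKM + 1), against gene length on a log axis. Points are the 7 tested cytokine genes, and lines are medians of the genes tested in bins of length. The shortest bin, with a median length of 120 bases, is not drawn. In it LPS + G-CDs replicates 1 and 3 had medians of 0.0979 and -0.0071. In the bins drawn, replicates 1 and 3 with G-CDs run apart in opposite directions at short and long lengths and cross near the length of Lif. The LPS lines stay near 0. Control libraries are not drawn, and their replicate 3 went from 0.2014 at 1354.5 bases to -0.3087 at 14169 bases.

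The other ligands and partners of these families were mostly under the filter. Of 14, only Ebi3, Osm and Ctf1 passed the filter, and with LPS 2 were called higher and 0 lower. Here and in the lists below, the shares over all genes tested were 15.8% higher and 15.6% lower with LPS. Osm, which encodes oncostatin M of the IL-6 family, stood at 1.877, 1.913 and 2.076 FPKM in control and at 33.94, 33.16 and 32.73 with LPS, a difference of 3.54 ± 0.10 on the log2 scale (limma adjusted p = 2.7e-08). With G-CDs it stood at 32.60, 36.17 and 36.03 FPKM, a difference from LPS of 0.07 ± 0.10 with an interval of -0.16 to 0.29. Ebi3 was at 33.50, 39.12 and 55.02 FPKM with G-CDs, a difference of -0.20 ± 0.37 with an interval of -1.04 to 0.64. Neither was called.

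Of 14 receptor genes for these ligands, 8 were tested, and with LPS 1 was called higher and 3 lower (all genes tested, 15.8% and 15.6%), with a median of -0.035. Il10ra, the ligand-binding chain for IL-10, rose from 14.04 ± 1.625 to 51.94 ± 0.4813 FPKM (SD, n = 3), by 1.82 ± 0.12 on the log2 scale (limma adjusted p = 5.6e-06). Csf1r, the receptor for CSF1, fell from 451.2 ± 19.48 to 201.7 ± 9.629 FPKM, a log2 difference of -1.16 ± 0.13 (limma adjusted p = 0.00021). Il6ra fell from 11.58 ± 2.043 to 4.805 ± 0.4336 FPKM, a log2 difference of -1.11 ± 0.19 (limma adjusted p = 0.0022).

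The third lower receptor was Csf2rb, a signaling chain for GM-CSF, at -0.45 ± 0.13 (limma adjusted p = 0.028), and its call was lost without any 1 of control replicates 1 and 2, the 3 LPS replicates and LPS + G-CDs replicate 2, and in the fit without the filter (limma adjusted p = 0.063), while the difference stayed between -0.48 and -0.41. Without control replicate 1, Csf2ra, the ligand-binding chain for GM-CSF, was called higher (0.61, limma adjusted p = 0.0076), against 0.32 with all libraries (limma adjusted p = 0.33), which made 2 higher and 2 lower. Csf3r, the receptor for the most abundant of the 10 ligands, had 61 reads over the control libraries, 61 over the LPS libraries and 45 over the LPS + G-CDs libraries. Lifr had 362 reads over the control libraries and 6 over the LPS libraries, and it was below the filter. Il23r had 0 reads in all 9 libraries. With G-CDs none of the 8 tested receptors was called against LPS, where 0.25% of all genes tested were called higher and 0.242% lower, and 0 had an unadjusted p under 0.05 in the limma fit, where 15.2% of all genes tested did.

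Of 15 genes that carry or limit the signals of these receptors, which are JAK, STAT and SOCS genes with Cish, Pias1 and Ptpn6, 13 were tested, and with LPS 7 were called higher and 0 lower (all genes tested, 15.8% and 15.6%), with a median of 0.775. Of the 7, Cish and Socs1 were under 1 FPKM in every control library and passed the filter through their LPS-treated libraries alone, so their difference from control was built into their selection. Of the other 11 genes 5 were called higher and 0 lower. With TPM and without control replicate 1, the phosphatase gene Ptpn6 was called lower (limma adjusted p = 0.045 and 0.027). Socs3, which encodes a brake on IL-6 signaling, rose from 6.074 ± 1.185 to 282.5 ± 20.92 FPKM, by 5.34 ± 0.15 on the log2 scale (limma adjusted p = 2.8e-08). Cish, a target of STAT5, stood at 1 read over the control libraries and at 3.67 ± 0.2848 FPKM with LPS, a difference of 2.22 ± 0.12 given as a description. Jak2, the kinase of the CSF2 and CSF3 receptors, rose from 4.774 ± 1.312 to 17.29 ± 1.012 FPKM, by 1.69 ± 0.21 (limma adjusted p = 0.0004).

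None of the 13 was called between LPS + G-CDs and LPS, 5 had an unadjusted p under 0.05 (15.2% of all genes tested did), and the median was -0.219. Cish differed by -0.49 ± 0.12 with an interval of -0.76 to -0.23 (limma adjusted p = 0.15), at 2.273, 2.119 and 2.562 FPKM with G-CDs against 3.426, 3.983 and 3.601 with LPS, without overlap. Jak2 differed by -0.53 ± 0.21 with an interval of -1.02 to -0.04, and Socs3 by -0.22 ± 0.15 with an interval of -0.55 to 0.12.

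Of 22 regulators of transcription and mRNA decay of these cytokines, 20 were tested, and with LPS 17 were called higher and 0 lower (all genes tested, 15.8% and 15.6%), with a median of 1.894. Over the alternatives between 14 and 18 were called higher and 0 lower, with 18 when the replicate number was a block. Batf and Arid5a, among the 17, passed the filter through LPS-treated libraries alone, and of the other 18 genes 15 were called higher and 0 lower. Nfkbiz, which encodes the IκBζ cofactor of NF-κB at the Il6 gene, rose from 3.335 ± 0.5815 to 163.2 ± 4.999 FPKM, by 5.25 ± 0.17 on the log2 scale (limma adjusted p = 7.6e-08). Zfp36, whose product binds AU-rich elements and triggers decay, rose from 9.712 ± 1.876 to 215.1 ± 2.208 FPKM, by 4.35 ± 0.15 (limma adjusted p = 8.7e-08). Zc3h12a, which encodes the nuclease Regnase-1 that cleaves Il6 mRNA, rose from 6.172 ± 1.442 to 83.38 ± 4.10 FPKM, by 3.57 ± 0.15 (limma adjusted p = 3.3e-07).

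With G-CDs against LPS none of the 20 was called, 10 had an unadjusted p under 0.05 (against 15.2% of all genes tested), and the median was -0.014. Without overlap between the groups, 6 of the 20 were higher and 8 lower, where 12.9% and 15.0% of all genes tested were. Nfkbiz stood at 111.9, 94.3 and 72.3 FPKM with G-CDs, below each LPS library, a difference of -0.83 ± 0.17 with an interval of -1.22 to -0.44 (limma adjusted p = 0.11). Zfp36 differed by -0.43 ± 0.15 with an interval of -0.76 to -0.10, and Zc3h12a by -0.34 ± 0.15 with an interval of -0.67 to -0.01, also without overlap. Atf3, which encodes a stress-induced transcription factor, stood at 84.32, 90.04 and 107.5 FPKM with G-CDs, above each LPS library, a difference of 0.66 ± 0.13 with an interval of 0.36 to 0.95 (limma adjusted p = 0.09). Without LPS + G-CDs replicate 1, which makes the groups unequal, Nfkbiz and the NF-κB subunit gene Rel were called lower (limma adjusted p = 0.035 and 0.037) and Atf3 higher (limma adjusted p = 0.044).

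All 8 genes of a list of STAT3 targets in macrophages were tested, and with LPS 7 were called higher and 0 lower (all genes tested, 15.8% and 15.6%), with a median of 1.829. Il1rn, the receptor antagonist for IL-1, rose from 1.147 ± 0.4241 to 134.3 ± 5.522 FPKM, by 6.00 ± 0.16 on the log2 scale (limma adjusted p = 2.5e-08). Socs3, given above, is also on this list, and the kinase gene Pim1 rose from 4.128 ± 0.2714 to 101.8 ± 2.374 FPKM, by 4.33 ± 0.11 (limma adjusted p = 2.4e-08).

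With G-CDs, Il1rn was the 1 gene of these lists that was called, where 0.25% of all genes tested were called higher and 0.242% lower. Of the 8 STAT3 targets, 3 had an unadjusted p under 0.05 in the limma fit, where 15.2% of all genes tested did. Without overlap, 4 of them were lower and 0 higher, where 15.0% and 12.9% of all genes tested were. Il1rn stood at 55.38, 51.43 and 46.70 FPKM with LPS + G-CDs against 136.1, 138.6 and 128.1 with LPS, a clear separation of the groups. It fell by 1.38 on the log2 scale with an interval of -1.74 to -1.02 (limma adjusted p = 0.009). The call was lost without LPS replicate 1, without LPS replicate 2 and without LPS + G-CDs replicate 2 (limma adjusted p = 0.068, 0.074 and 0.067), and it was lost with a pseudocount of 0.1 and with TPM (limma adjusted p = 0.079 and 0.057). In these 5 settings the difference itself stayed between -1.56 and -1.35. Pim1 differed by -0.09 ± 0.11 with an interval of -0.35 to 0.16 and was not called.

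Over the 9 libraries, the genes outside the 10 with the profile most like each member on the log2 scale were taken as a description, since the jump between control and LPS sets most of each correlation. For Csf3 they were Il1b, Ifi202b and Slc15a3, each with a Pearson r of 0.9997. For Il6 they were Il1b at 0.9992, Zbp1 and Ifi202b, and for Csf2 they were Ptges at 0.9985, Ccl2 and Cd40. For Il27 they were Nfkbia and Ccl9, both at 0.9989, and Slc15a3. For Lif they were Oasl2 at 0.9997, Pla2g5 and Pim1, for Csf1 Zswim4 at 0.9952, Oas3 and Bpnt1, and for Il23a Cxcl11 at 0.993, Atf3 and Igtp. Within the 6 LPS-treated libraries, r was 0.969 between Csf3 and Il27, 0.934 between Csf2 and Csf3 and 0.803 between Csf1 and Lif, while it was -0.724 both between Lif and Il23a and between Csf1 and Il23a. All these values share the same 6 libraries, and Csf2, Il27 and Csf3 are the 3 shortest of the 7 genes while Lif and Csf1 are the 2 longest. Il6, at 2428 bases, had r of 0.93 with Csf2 and 0.826 with Csf3. Il23a, at 2247 bases, had r of -0.123 and -0.191 with them. The part of length in these values was not tested.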

How the data were processed

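mRNA of 9 RAW264.7 libraries was sequenced in 3 groups of 3. The authors deposited FPKM per gene and library, with gene coordinates and gene lengths, and 0 columns of values were left unused. The submitters' processing notes name the builds GRCm38 and mm10. The aligner, the counting method and its strand setting are not given in the sources used here. FPKM times gene length gave whole reads in 100.0% of values, within 0.05 reads, and these served for depth, the floor of 3 reads and counting intervals.

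The 11585 genes that reached 1 FPKM in 3 or more of the 9 libraries were transformed as log2(FPKM + 1). A single limma model (version 3.58.1, R 4.3.3, lmFit and eBayes with trend) covered the 3 groups. Tests were two-sided with Benjamini-Hochberg adjustment over all genes tested, and the step was tested on simulated data. Il10, under the filter, had an exact permutation test in scipy 1.17.1. Python 3.11.15 and pandas 2.3.3 prepared the tables. The 10 genes and the lists were chosen with earlier results of these data known. Named were the 10 genes, any gene of a list called with G-CDs, the 3 largest called changes of a list with LPS, and the 3 genes most like each tested one; Ctf1, Csf2ra, Csf2rb, Socs1, Batf, Arid5a, Csf3r, Lifr, Il23r, Pias1, Ptpn6, Rel, Atf3, Lck, Mertk, Cd3d, Cd3e, Cd3g, Xcr1 and Lyz2 were named after their values were seen. Among macrophage markers Cd14 (2.40) and Adgre1 (1.50) had the largest rises with LPS on the log2 scale, while Csf1r (-1.16) and Lyz2 (-0.88) were called lower, the call of Lyz2 being lost without the filter and without any 1 of the LPS replicates or control replicate 3.

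Replicate numbers are shared by the groups. The deviations from the group mean of LPS and control libraries with the same number had Pearson r of 0.103, 0.137 and 0.113. These values are small, and the labels do not say what a number stands for. The main fit did not use the replicate number, which entered as a block in an alternative only. Promoters are from RefSeq (GRCm38.p6), and 3′ UTRs and coding sequences from GENCODE mouse release M21. Alternatives were another pseudocount (0.1), no filter, a filter at FPKM 5, TPM, median-of-ratios, the 6 libraries of a comparison, eBayes without trend, limma voom on recovered reads, the replicate number as a block, and the fit with any single library removed. Removal of the length trend (lowess of each library's deviations on log2 gene length), the threshold of the study (p under 0.01, over 1.5-fold) and ratios to control without single libraries were added after seeing the data.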

Additional observations from a re-analysis of the deposited data

How the results depend on the processing

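The rise of the 7 tested genes with LPS, alone or with G-CDs, kept its call in every alternative that tested them. Their LPS-treated libraries alone were enough for the filter, so the count of kept calls carries no support. The filter at FPKM 5 left 5 of the 7 genes, and without a filter Il10 was called as well, which made 8. Between LPS + G-CDs and LPS no alternative called any of the 7 except removal of the length trend, which called 3, with log2 differences of -0.86 for Csf2, -0.69 for Csf3 and -0.89 for Il27. Leaving out each library in turn gave 0 calls among them. The wider NF-κB consensus was in the same number of promoter windows, 2.

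Over all genes tested, 57 were called between LPS + G-CDs and LPS. This became 25 with the pseudocount of 0.1, 27 with TPM, 25 with the 6 libraries alone, 92 with the length trend removed, 288 at the threshold of the study and 11 to 256 without single libraries, 256 being without LPS + G-CDs replicate 1. Between LPS + G-CDs and control it was 2927, and 1789 with the 6 libraries alone, while leaving out single libraries gave 1914 to 3245. TPM moved the median of all genes to -0.135 between LPS + G-CDs and LPS, to -0.232 between LPS and control and to -0.376 between LPS + G-CDs and control. The 7 genes kept their directions under TPM, while the log2 difference between LPS + G-CDs and LPS moved from -0.17 to -0.34 for Il6 and from -0.18 to -0.37 for Csf1. That of Csf1 was -0.29 with the pseudocount of 0.1 and -0.30 with voom on reads. Against control, log2 differences of low genes grew with these settings, for Csf1 with LPS from 1.49 to 2.53 with TPM, 3.92 with the pseudocount of 0.1 and 5.91 with voom.

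With the replicate number as a block, 53 genes were called between LPS + G-CDs and LPS, 4104 between LPS and control and 3347 between LPS + G-CDs and control, and no call among the 7 genes changed. Between LPS + G-CDs and LPS the same-numbered libraries correlated at 0.095, 0.08 and 0.143, much as those of LPS and control did. Between LPS + G-CDs and control they correlated at 0.28, 0.057 and 0.653. Whether the numbers pair libraries of any 2 groups was not settled by these values. Depth limited Il12a and Il12b, which had at most 2 reads in a library, and Il10, which had at most 13.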
